A study of Mus musculus with 5 samples.

Results

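The genes described here build the cornified envelope, the cross-linked protein shell that replaces the plasma membrane of a keratinocyte at the end of its life. They were read in RNA of dermal group 2 innate lymphoid cells (dILC2s) sorted from mouse skin, and were chosen by name as every row of the count table for the late cornified envelope (Lce) and small proline-rich (Sprr) families, Flg, Flg2, Hrnr, Rptn, Tchh, Crnn, Lor, Ivl, Cdsn, Casp14, Tgm1, Tgm3 and Tgm5. The rule found 57 of 47729 rows, which carried 51 symbols because 7 rows were named Flg. Of these rows, 43 had enough counts to be tested and 14 did not. The 14 untested rows reached at most 14 counts in any library, and 7 of them were at 0 counts in all 5 libraries.

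A keratinocyte leaves the basal layer, enters the spinous layer, and in the granular layer switches on the genes of the epidermal differentiation complex, a cluster that lies on chromosome 3 in the mouse. Involucrin and the envelope plakins form a first scaffold under the membrane, and transglutaminases join loricrin, small proline-rich and late cornified envelope proteins to it. Filaggrin, one of the S100-fused proteins, packs keratin and helps to hold water. These proteins are hallmarks of dying keratinocytes and are not known as products of lymphocytes.

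The study compared freshly sorted, unstimulated dILC2s of C57BL/6 wild-type (WT) mice with those of C57BL/6 Rag1-/- mice, a germline knockout that lacks mature T and B cells. By the methods all mice were female and 8 to 13 weeks old. The methods gate dILC2s in flow cytometry as viable CD45+ CD90hi cells without CD2 or CD3, which keratinocytes, having no CD45, should not pass. They give no separate gate for the cells sorted for RNA. Cells were pooled before sequencing: 3 WT libraries (numbered 5, 6 and 13) of 10 mice each, and 2 Rag1-/- libraries (numbered 2 and 7) of 9 mice each, although the labels count 16 Rag1-/- mice and not 18. The labels also give innate lymphoid cells type 3 as the cell type of the Rag1-/- libraries and type 2 for WT, while the design text calls both dILC2s.

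The libraries held 32939428 to 39477243 counts in WT and 8050562 (library 2) and 38922750 (library 7) in Rag1-/-. The level that 3 counts stand for, the smallest read here as present, was therefore 0.373 CPM (counts divided by the library total and scaled to 1 common size) in library 2 against 0.0760 to 0.0911 CPM in the other libraries, for counting error only. Rag1 itself was counted 4, 0 and 5 times in WT, 5 times in the library labelled Rag1-/- 2 and 48 times in that labelled Rag1-/- 7. The basal keratinocyte list (12 genes, among them Krt5 and Krt14) summed to 16830 to 19585 CPM in WT and to 5627 and 8726 CPM in Rag1-/- libraries 2 and 7. The leukocyte list (22 genes) summed to 948 to 2288 CPM in WT and to 7336 and 6424 CPM in Rag1-/-. The ILC2 list (14 genes, none at 0 counts) summed to 1338 to 2579 CPM in WT and to 6869 and 4657 CPM in Rag1-/-. Of the basal genes 8 were called lower in Rag1-/-, and of the leukocyte genes 16 were called higher (edgeR), and as for all genes no call was left once any WT library or library 2 was taken out. In such bulk RNA fewer keratinocytes and less RNA per keratinocyte cannot be told apart, and the part of either in the results below was not tested.

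No cornified envelope gene passed the test between the genotypes, and the 2 Rag1-/- libraries stood far apart. Summed over all 57 rows, they took 0.356%, 0.170% and 0.166% of the counts in WT libraries 5, 6 and 13. In Rag1-/- they took 0.00789% in library 2, which is 635 counts, and 0.130% in library 7. Library 2 thus lay far below every WT library, and library 7 a little below the lowest of them. In edgeR's quasi-likelihood test with Benjamini-Hochberg adjustment over 19011 genes, where a call needed an adjusted p below 0.05 together with a log2 fold change beyond 1 in either direction, none of the 43 tested rows was called lower or higher. The background was 2.16% of all genes called lower and 3.57% called higher. An unadjusted p-value under 0.05 was reached by 8 of the 43 (background 26.4% in both directions). DESeq2 called 6 rows lower and none higher, against 7.16% and 6.85% of the genes it tested. Those 6 were Tchh, Ivl, Tgm3, Casp14 and 2 short rows named Flg.

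**Figure D1:**
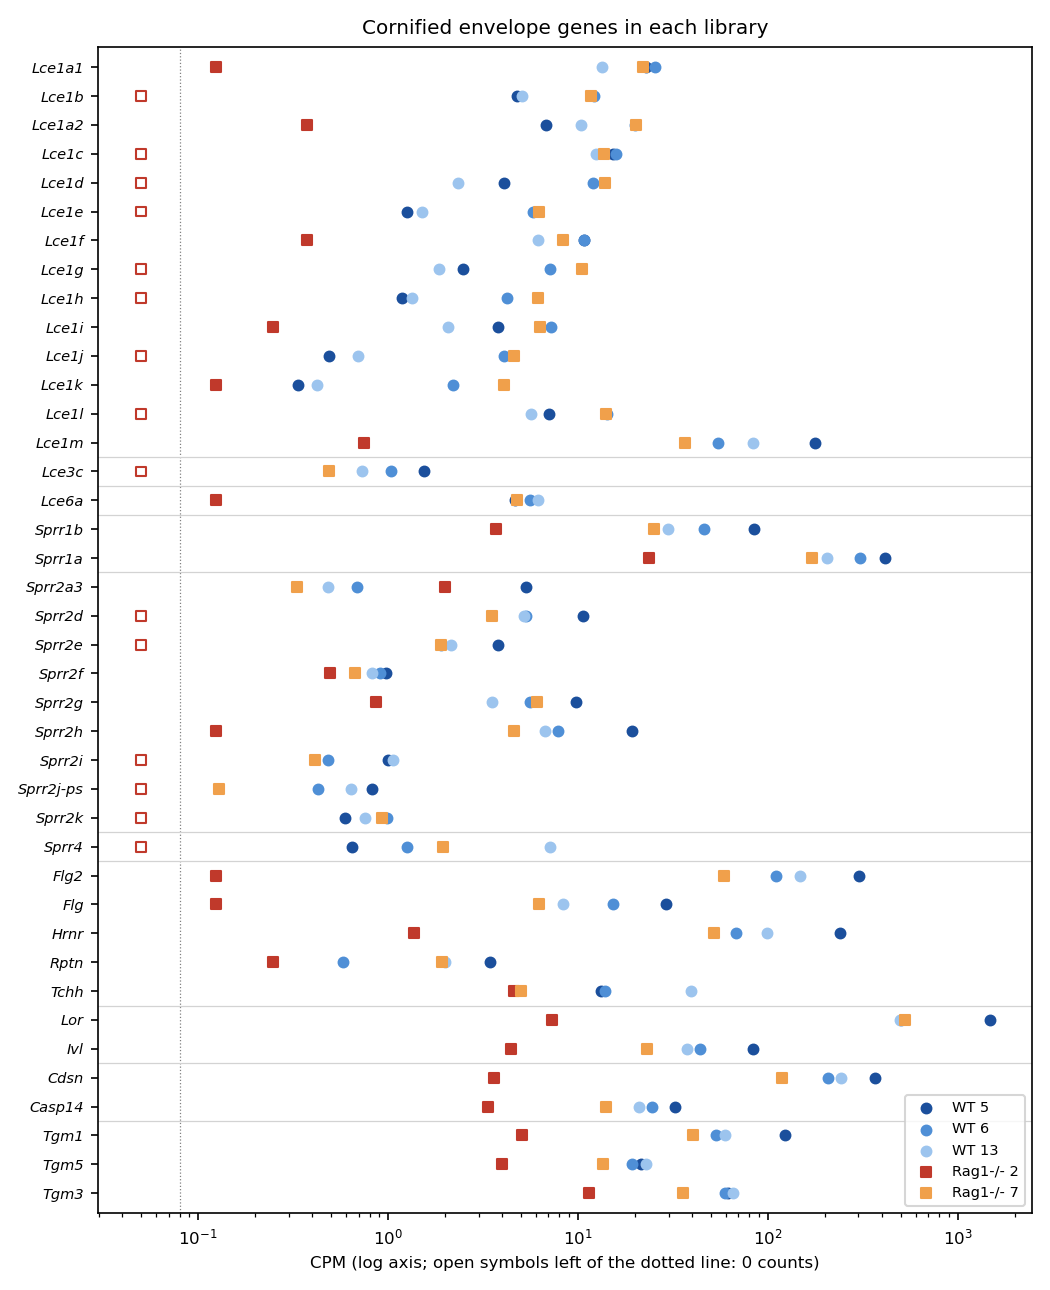
CPM of each tested cornified envelope gene (log axis), with circles for the WT libraries 5, 6 and 13 and squares for the Rag1-/- libraries 2 and 7. Short extra rows named Flg are left out. Open squares at the left edge mark 0 counts, and the red squares of library 2 lie left of all other points in every gene drawn but Sprr2a3.

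The fold changes pointed mostly one way, and their errors were wide. Of the 43 tested rows 37 had a negative log2 fold change (Rag1-/- minus WT) and 6 a positive, with a median of -1.19 beside 0.02 over all genes tested. Scaled on the basal keratinocyte list instead, 23 were negative and 20 positive, with a median of -0.14 beside 1.35 over all genes, and 13 of the 14 LCE1 genes were positive. Both Rag1-/- libraries lay below every WT library in 21 of the 43 (background 24%) and above every WT library in 0 (background 21.9%). Library 2 was the lowest of the 5 libraries in 42 of the 43 (background 31.4%), with 18 rows at 0 counts and 28 at 3 counts or fewer. In Lce1k and some short rows named Flg the level of 3 counts in library 2 lay above the lowest WT library. The place of library 2 is not firm there, which also holds for a Flg row counted among the 21. Library 7 lay inside the WT range in 14 rows, below it in 22 and above it in 7. Without library 2 the median was -0.56 and no row was called, nor was any other gene. Without library 7, where the spread of the lone Rag1-/- library is assumed to be that of WT, 23 of 44 tested rows were called lower (background 7.98%) and none higher (background 4.07%). A row passes the filter on low counts through WT alone, so these counts describe the tested rows only.

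**Figure D2:**
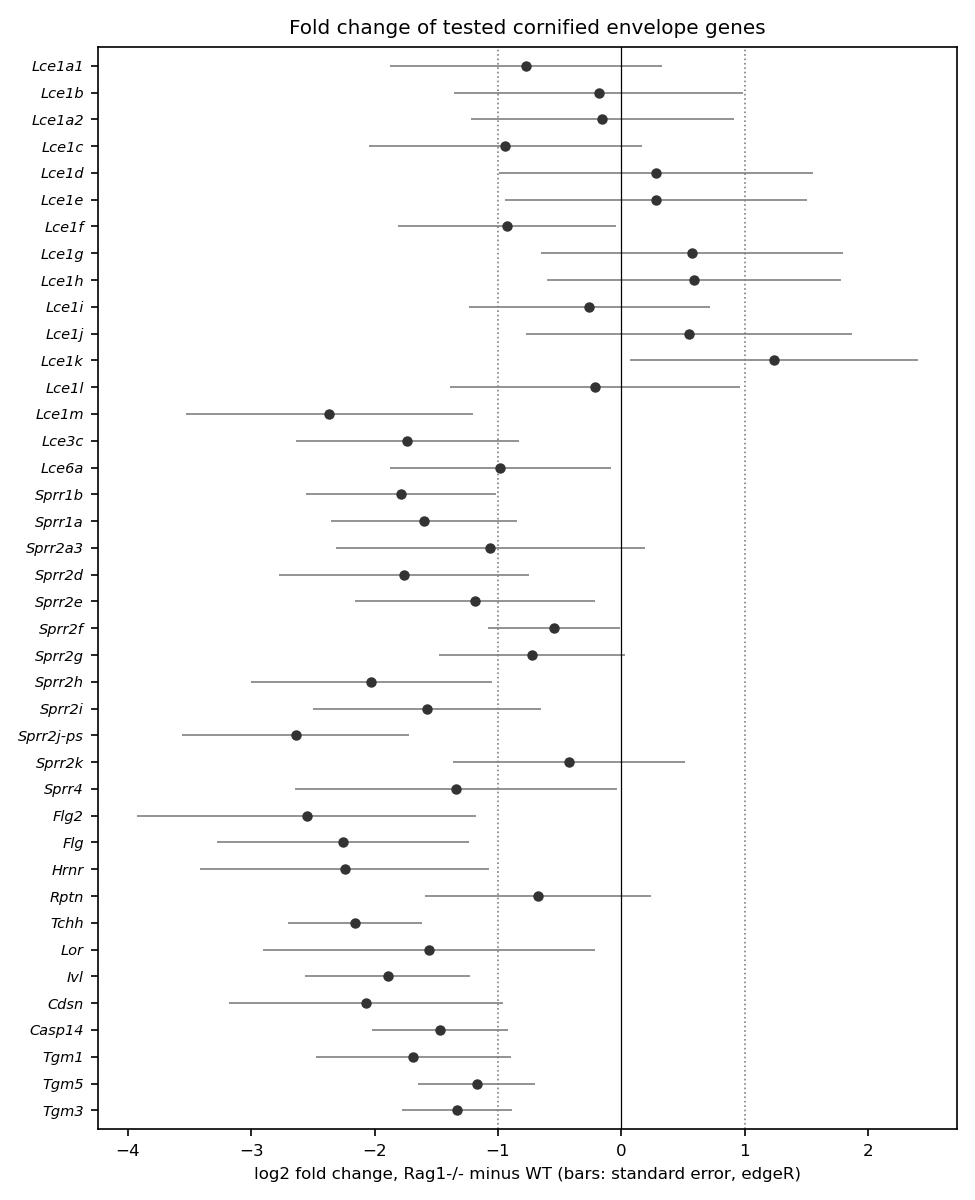
The log2 fold change (Rag1-/- minus WT) of each tested cornified envelope gene from edgeR, with bars for the standard error and dotted lines at the call limits of -1 and 1. Short extra rows named Flg are left out. LCE1 genes other than Lce1m lie between -0.94 and 1.24, and most of the others lie below -1 with bars of 0.44 to 1.37.

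Loricrin (Lor), the most abundant protein of the finished envelope, was also the most abundant of these transcripts. It had 1470, 500 and 499 CPM in WT libraries 5, 6 and 13, and 7.33 and 525 CPM in Rag1-/- libraries 2 and 7. Library 7 therefore sat inside the WT range, and library 2 held 0.890% of the WT mean (59 counts). The log2 fold change was -1.56 ± 1.35 (SE, adjusted p = 0.518, edgeR). Per kilobase of transcript Lor reached 827, 281 and 280 CPM in WT, ahead of Sprr1a with 512, 378 and 254 CPM. The order of these leading genes is not firm, since Sprr1a exceeded Lor in WT library 6 and in Rag1-/- library 2 (29.3 against 4.12 CPM per kilobase).

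Involucrin (Ivl), a scaffold protein laid down before loricrin, had 83.1, 44.0 and 37.8 CPM in WT and 4.47 and 23.0 CPM in Rag1-/- libraries 2 and 7. Both Rag1-/- libraries lay below all WT libraries. The log2 fold change of -1.90 ± 0.67 missed the threshold in edgeR (adjusted p = 0.133) and passed it in DESeq2 (-1.96, adjusted p = 0.0122). Library 2 kept 8.14% of the WT mean of Ivl, against 0.890% of that of Lor.

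Upstream of their starts Lor and Ivl share with Sprr1a and Flg a motif of AP-1, the factor made of Jun and Fos proteins, that no LCE1 promoter held. The 120 bases before each RefSeq start site (GRCm38.p6, written on the strand of the gene) are shown because they set these groups apart. Capitals mark the AP-1 motif TGANTCA and the TATA motif TATAAA.
Lor, chr3:92083143-92083262, minus strand: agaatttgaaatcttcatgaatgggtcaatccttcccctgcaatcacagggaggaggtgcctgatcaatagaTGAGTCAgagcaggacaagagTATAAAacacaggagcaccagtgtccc
Ivl, chr3:92573736-92573855, minus strand: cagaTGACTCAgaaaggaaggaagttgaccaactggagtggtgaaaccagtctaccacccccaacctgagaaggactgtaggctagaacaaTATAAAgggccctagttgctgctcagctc
Sprr1a, chr3:92485882-92486001, minus strand: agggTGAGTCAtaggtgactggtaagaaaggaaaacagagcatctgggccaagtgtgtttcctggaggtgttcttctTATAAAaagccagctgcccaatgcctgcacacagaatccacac
Flg, chr3:93273426-93273545, plus strand: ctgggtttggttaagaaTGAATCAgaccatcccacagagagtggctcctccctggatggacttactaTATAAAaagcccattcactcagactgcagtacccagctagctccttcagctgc

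Promoters were found for 47 of the 51 symbols, 49 windows in all, with none for Lce1f, Sprr2g, Sprr2c-ps and Sprr2j-ps. Over the 250 bases before the start, read on both strands, TGANTCA occurred in 15 of the 49 (30.6%) against 6.75% of 32851 mouse promoters. It occurred in both SPRR1 promoters, in 7 of 10 SPRR2 promoters, in 4 of 6 promoters of S100-fused genes, and in those of Lor and Ivl. It occurred in 0 of 13 LCE1 and 0 of 6 LCE3 promoters. TATAAA occurred in 21 of the 49 (42.9%) against 12.4% of all promoters, CACCC, a core of KLF sites, in 44.9% against 52.0%, and AACCGGTT, a GRHL site, in 0 of the 49 against 0.116%. Such a match is a string of letters and does not show that a factor binds there.

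The small proline-rich proteins bridge loricrin and the scaffold. Sprr1a had 413, 305 and 205 CPM in WT libraries 5, 6 and 13 and 23.6 and 171 CPM in Rag1-/- libraries 2 and 7. Sprr1b had 85.0, 46.0 and 29.7 CPM in WT and 3.73 and 25.1 CPM in Rag1-/-. In both genes the Rag1-/- libraries lay below every WT library, and library 7 was close under the lowest of them. The log2 fold changes were -1.60 ± 0.76 for Sprr1a (adjusted p = 0.231, edgeR) and -1.79 ± 0.77 for Sprr1b (adjusted p = 0.194, edgeR). Neither gene shares a window of 50 bases, the read length, with another gene.

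Of the 13 SPRR2 rows 9 were tested, and all 9 had negative fold changes, of which 4 were positive with scaling on the basal keratinocyte list. The most abundant was Sprr2h, with 19.3, 7.83 and 6.68 CPM in WT and 0.124 (1 count) and 4.62 CPM in Rag1-/- libraries 2 and 7. Sprr2d followed with 10.6, 5.32 and 5.19 CPM in WT and 0 and 3.52 CPM in Rag1-/-. In library 7, 6 of the 9 tested rows lay below every WT library. Sprr2g did not, since its 6.09 CPM there lay inside the WT range of 3.52 to 9.82 CPM. Sprr2e and Sprr2k also lay inside their WT ranges. Summed, the SPRR2 rows reached 52.4, 24.5 and 21.4 CPM in WT and 3.73 and 18.8 CPM in Rag1-/- (log2 fold change -1.43 ± 0.68, adjusted p = 0.230, edgeR).

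Sprr2a3 was the only tested gene that was not lowest in library 2. It had 5.36, 0.684 and 0.486 CPM in WT libraries 5, 6 and 13, 1.99 CPM (16 counts) in library 2 and 0.334 CPM (13 counts) in library 7. Of its windows of 50 bases 61.1% occur in another gene too, so its reads cannot be assigned to it with confidence. For Sprr2a1 and Sprr2a2, its near copies, this share was 96.3% and 96.5%, and neither had more than 4 counts in any library. The pseudogene Sprr2j-ps had the most negative fold change of the SPRR2 rows (-2.64 ± 0.92, adjusted p = 0.128, edgeR) from 17 to 32 reads in the WT libraries, 0 in library 2 and 5 in library 7.

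Sprr4 stood apart in WT library 13. It had 7.13 CPM there, 0.644 and 1.27 CPM in WT libraries 5 and 6, and 0 and 1.95 CPM in Rag1-/- libraries 2 and 7. Sprr3, a protein of internal epithelia such as the esophagus, was at 0 counts in every library, as was Lce3a, while Crnn, of the same epithelia, had at most 14 counts.

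The LCE1 genes lie on chromosome 3, side by side from Lce1a1 to Lce1l, with Lce1m beyond the 6 LCE3 genes, and code for small cysteine-rich proteins that are joined to the envelope late. They did not share 1 pattern over the libraries. Lce1m, the most abundant, had 178, 54.5 and 83.5 CPM in WT libraries 5, 6 and 13 and 0.745 and 36.7 CPM in Rag1-/- libraries 2 and 7. Its order of WT libraries, 5 before 13 before 6, was that of Flg2 and Hrnr. Its log2 fold change was -2.37 ± 1.16 (adjusted p = 0.248, edgeR).

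Of the other 13 LCE1 genes 10 were higher in WT library 6 and in Rag1-/- library 7 than in WT libraries 5 and 13, and Lce1a1, Lce1c and Lce1f were not. Lce1g had 2.47, 7.17 and 1.85 CPM in WT libraries 5, 6 and 13, and 0 and 10.5 CPM in Rag1-/- libraries 2 and 7. Lce1h had 1.19, 4.26 and 1.34 CPM in WT and 0 and 6.14 CPM in Rag1-/-. Lce1k had 0.335, 2.20 and 0.425 CPM in WT and 0.124 (1 count) and 4.09 CPM in Rag1-/-. In these genes library 7 lay above every WT library, and in Lce1g and Lce1h library 2 lay below every WT library. For Lce1k library 2 cannot be placed, since 3 counts there stand for 0.373 CPM, above WT library 5. The log2 fold changes of Lce1g, Lce1h and Lce1k were the highest of the tested rows, 0.57 ± 1.23, 0.59 ± 1.19 and 1.24 ± 1.17, none near the threshold (adjusted p = 0.817, 0.806 and 0.559, edgeR).

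WT library 6 and Rag1-/- library 7 were both above WT libraries 5 and 13 in these 10 of the 14 LCE1 genes, against 1 of the 29 other tested rows (Sprr2k) and 15.6% of all genes tested. Library 7 was above every WT library in 7 of the 14 LCE1 genes and in 0 of the 29 other rows (background 33.5%). Both patterns were read from the LCE1 values themselves, so these counts describe them and do not test them. The LCE1 genes other than Lce1m also share stretches of sequence with each other, so they are not fully separate observations. The size of the rise from WT library 5 to Rag1-/- library 7 varied along the cluster. It was 2.45 times in Lce1b, 3.37 times in Lce1d, 9.39 times in Lce1j and 12.2 times in Lce1k, while Lce1a1, Lce1c and Lce1f were at 0.961, 0.890 and 0.775 times. Since these libraries are of different genotype, the pattern does not follow the labelled groups. Lce6a, which lies outside the LCE1 cluster on its Ivl side, did not share it, with 4.69, 5.62 and 6.16 CPM in WT and 0.124 and 4.75 CPM in Rag1-/-.

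**Figure D3:**
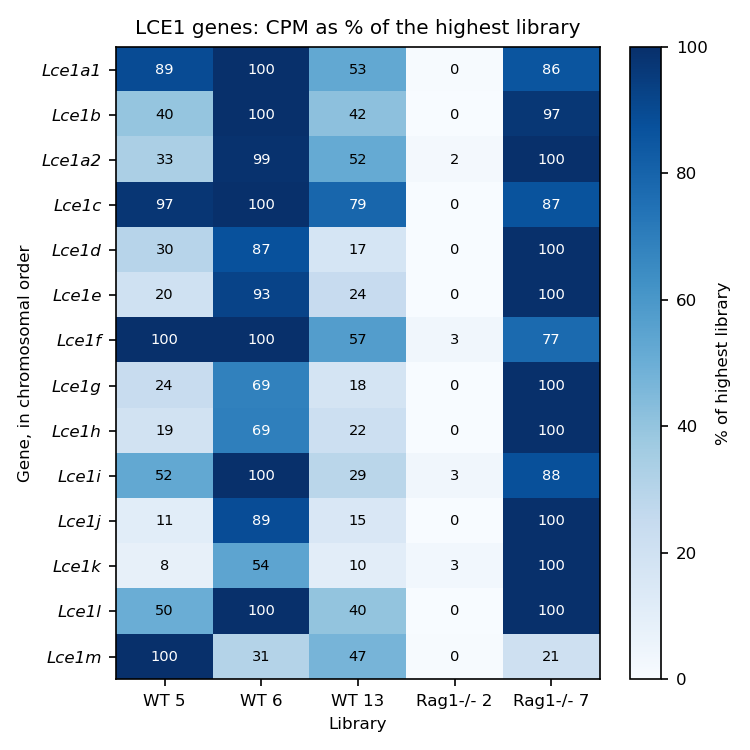
CPM of the 14 LCE1 genes in each library as a percent of the highest library of that gene, with genes from top to bottom in the order of their chromosome 3 positions. Most genes are darkest in WT library 6 and Rag1-/- library 7 and near 0 in Rag1-/- library 2, while Lce1m at the bottom is darkest in WT library 5.

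Reads of 50 bases cannot always tell these genes apart. Of the windows of 50 bases in each LCE1 transcript, 9.12% (Lce1k) to 27.1% (Lce1i) also occur in another gene, while Lce1m shares none. The window below, in the coding sequence of Lce1g (chr3:92750638-92750687, GRCm38, minus strand), is shown because it stands letter for letter in 10 LCE1 genes and in the neighbouring annotated gene Gm38119.
LCE1 shared coding window: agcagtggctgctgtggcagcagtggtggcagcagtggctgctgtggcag
How reads that map to several places were treated is not given in the sources used here. The sum over all LCE1 genes does not depend on how such reads are split among them. It was 259, 196 and 147 CPM in WT and 1.99 (16 counts) and 178 CPM in Rag1-/- (log2 fold change -1.08 ± 1.23, adjusted p = 0.640, edgeR).

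The promoters of Lce1m and Lce1l were less like those of the other LCE1 genes than most of these were like each other. Identity over the RefSeq windows ran from 52.5% to 55.8% (median 54.0%) in the 12 pairs with Lce1m and from 52.4% to 56.8% (median 53.9%) in the 12 with Lce1l. It ran from 54.2% to 85.6% (median 66.8%) in the 55 pairs with neither, and was highest for Lce1g and Lce1i. Low identity did not go with 1 pattern over the libraries, since Lce1l was among the 10 genes high in WT library 6 and Rag1-/- library 7 and Lce1m was not. In the windows below, of 120 bases as above, capitals mark TATAAA and ATAAAAG, the latter a motif chosen after the sequences were seen, which overlaps TATAAA where it reads TATAAAAG.
Lce1m, chr3:93019062-93019181, minus strand: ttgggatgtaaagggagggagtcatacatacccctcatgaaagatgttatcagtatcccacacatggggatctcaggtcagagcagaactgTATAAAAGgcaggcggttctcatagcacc
Lce1d, chr3:92687211-92687330, minus strand: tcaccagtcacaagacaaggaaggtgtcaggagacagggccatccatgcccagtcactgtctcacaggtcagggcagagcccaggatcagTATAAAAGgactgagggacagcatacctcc
Lce1g, chr3:92752339-92752458, minus strand: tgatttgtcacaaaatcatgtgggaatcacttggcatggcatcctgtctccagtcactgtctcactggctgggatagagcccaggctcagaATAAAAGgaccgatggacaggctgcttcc
Lce1h, chr3:92765066-92765185, minus strand: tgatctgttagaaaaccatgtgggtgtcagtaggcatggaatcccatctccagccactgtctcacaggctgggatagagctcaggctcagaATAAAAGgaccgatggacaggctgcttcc
Lce1k, chr3:92807892-92808011, minus strand: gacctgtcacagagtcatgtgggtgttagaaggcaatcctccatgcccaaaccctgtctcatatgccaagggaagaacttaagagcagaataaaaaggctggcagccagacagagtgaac

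ATAAAAG occurred in 10 of 13 LCE1 and 5 of 6 LCE3 promoters, against 4.83% of all promoters, and in 0 of 10 SPRR2 promoters. TATAAA occurred in 2 of 13 LCE1 promoters, against 7 of 10 in SPRR2.

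LCE3 genes, which skin is known to switch on after injury, were near the limit of detection. Of the 6 genes only Lce3c was tested, with 1.55, 1.04 and 0.729 CPM in WT (60, 41 and 24 counts) and 0 and 0.488 CPM (0 and 19 counts) in Rag1-/-. Its log2 fold change was -1.73 ± 0.90 (adjusted p = 0.275, edgeR). Lce3d and Lce3f had at most 10 counts in any library. The LCE3 genes together were counted 71, 52 and 29 times in WT, 0 times in library 2 and 33 times in library 7, and the 0 in library 2 allows a level of up to 0.373 CPM.

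Of the S100-fused proteins, filaggrin (Flg) is made as long repeats, bundles keratin, and is broken down to the acids that hold water in the outer skin. Flg2 had 301, 111 and 148 CPM in WT libraries 5, 6 and 13 and 0.124 (1 count) and 59.1 CPM in Rag1-/- libraries 2 and 7. Hrnr (hornerin) had 239, 67.9 and 99.4 CPM in WT and 1.37 and 51.9 CPM in Rag1-/-. The main Flg row had 29.0, 15.3 and 8.38 CPM in WT and 0.124 (1 count) and 6.22 CPM in Rag1-/-. In each of them both Rag1-/- libraries lay below every WT library. For Flg2 the WT mean stood at 500 times the level of 3 counts in library 2, the largest such ratio among the rows at or under 3 counts there. The log2 fold changes were -2.55 ± 1.37 for Flg2, -2.24 ± 1.17 for Hrnr and -2.26 ± 1.02 for Flg (adjusted p = 0.291, 0.276 and 0.212, edgeR).

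The values of Flg, Flg2 and Hrnr carry a limit of their own. Of their windows of 50 bases, 79.2%, 65.3% and 69.1% occur more than once in the same transcript, and the transcript length given in the table was 4523 bases for Flg and 1522 for Flg2, against 14497 and 20803 bases for their longest GENCODE transcripts. Levels per kilobase are therefore not given for them. Of the 6 further rows named Flg, 3 were at 0 counts everywhere and 3 were tested on at most 60 counts. Of those, 2 had the most negative fold changes of all tested rows, -4.00 ± 1.36 and -2.98 ± 0.91 (adjusted p = 0.121 and 0.0961, edgeR), on 8 to 60 and 21 to 42 counts in WT. With the 7 rows summed, a step added after the data were seen, Flg had 32.5, 16.7 and 9.68 CPM in WT and 0.124 and 6.81 CPM in Rag1-/- (log2 fold change -2.29 ± 1.02, adjusted p = 0.206, edgeR).

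Trichohyalin (Tchh), which hardens the inner root sheath of the hair follicle, differed from most of the others in that it was as low in library 7 as in library 2. It had 13.3, 13.9 and 39.4 CPM in WT libraries 5, 6 and 13 and 4.60 and 5.01 CPM in Rag1-/- libraries 2 and 7. Both Rag1-/- libraries lay below every WT library. With -2.16 ± 0.54 Tchh had the smallest adjusted p of all the rows (0.0621, edgeR), and it was called with DESeq2 (-2.20, adjusted p = 0.000488) and when only genes with at least 10 counts in every library were kept (adjusted p = 0.0399, edgeR, background 4.54%). WT library 13, where Tchh was highest, was also highest for the 8 inner root sheath keratins, which summed to 96.5 CPM there, to 4.77 and 3.09 CPM in WT libraries 5 and 6, and to 2.61 and 9.12 CPM in Rag1-/-. Without WT library 13 the log2 fold change of Tchh was -1.47 (adjusted p = 0.114, edgeR), and both Rag1-/- libraries were still below the other WT libraries. Rptn (repetin) had 3.45, 0.583 and 2.00 CPM in WT and 0.248 and 1.93 CPM in Rag1-/-.

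Corneodesmosin (Cdsn), the glue of corneodesmosomes between dead cells, had 367, 207 and 243 CPM in WT libraries 5, 6 and 13 and 3.60 and 119 CPM in Rag1-/- libraries 2 and 7. Casp14, a protease that takes part in the breakdown of filaggrin, had 32.4, 24.6 and 21.1 CPM in WT and 3.35 and 14.1 CPM in Rag1-/-. Both genes lie outside the complex, on chromosomes 17 and 10, and in both the Rag1-/- libraries lay below every WT library. Library 2 kept 1.32% of the WT mean of Cdsn and 12.9% of that of Casp14. The log2 fold changes were -2.07 ± 1.11 for Cdsn and -1.47 ± 0.55 for Casp14 (adjusted p = 0.287 and 0.148, edgeR), and DESeq2 called Casp14 (adjusted p = 0.0306).

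The transglutaminases join these proteins to each other. Tgm3, on chromosome 2, had 61.9, 59.7 and 65.5 CPM in WT libraries 5, 6 and 13 and 11.4 and 35.6 CPM in Rag1-/- libraries 2 and 7. Tgm5, on the same chromosome, had 21.6, 19.2 and 22.7 CPM in WT and 3.97 and 13.6 CPM in Rag1-/-. Tgm1, on chromosome 14, had 123, 53.6 and 59.3 CPM in WT and 5.09 and 40.6 CPM in Rag1-/-. All 3 lay below every WT library in both Rag1-/- libraries. Tgm3 and Tgm5 varied least within WT and had log2 fold changes of -1.33 ± 0.44 and -1.17 ± 0.47 (adjusted p = 0.117 and 0.171, edgeR), of which DESeq2 called Tgm3 (adjusted p = 0.0199). For Tgm1 the change was -1.69 ± 0.79 (adjusted p = 0.227, edgeR). Tgm2, the form found in most tissues, had 94.0, 74.4 and 88.0 CPM in WT and 41.1 and 88.9 CPM in Rag1-/- (log2 fold change -0.34 ± 0.34, adjusted p = 0.579, edgeR).

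In library 2 the make-up of the envelope transcripts differed, not only their amount. Lor took 41.3%, 29.5% and 30.0% of the cornified envelope counts in WT libraries 5, 6 and 13 and 40.5% in Rag1-/- library 7, but 9.29% in library 2 (95% exact binomial interval 7.15% to 11.8%). LCE1 genes took 7.26% to 11.5% in WT and 13.8% in library 7, and 2.52% in library 2 (1.45% to 4.06%). SPRR1 genes took 14.0% to 20.7% in WT and 15.1% in library 7, and 34.6% in library 2 (30.9% to 38.5%). Transglutaminases took 5.79% to 8.87% in WT and 6.92% in library 7, and 26.0% in library 2 (22.6% to 29.6%). Library 7 thus lay inside the WT range for SPRR1 genes, transglutaminases and Lor, and above it for LCE1 genes. The intervals cover counting error only, and library 2 is 1 pool, so the shift has no replicate. S100-fused genes took at least 12.4% in every WT library, 9.63% in library 7 and 8.19% in library 2 (6.18% to 10.6%), below WT in both Rag1-/- libraries. Cdsn and Casp14 together likewise took 11.2% to 15.9% in WT, 10.3% in library 7 and 8.82% in library 2 (6.73% to 11.3%, an interval that reaches the lowest WT value). Of the 52 S100-fused counts in library 2, 37 were Tchh. Tchh took 5.83% in library 2 (4.14% to 7.94%), 0.373% to 2.37% in WT and 0.387% in library 7. The S100-fused share of library 2 thus rested mostly on Tchh, and that of library 7 did not.

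**Figure D4:**
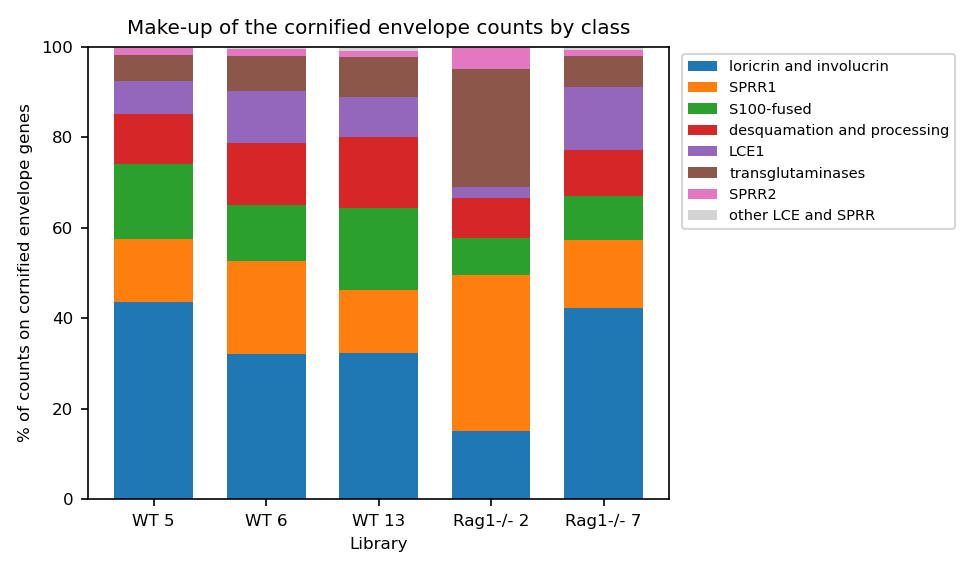
Share of the cornified envelope counts taken by each class of genes in each library, stacked to 100%. The loricrin and involucrin block takes 32.1% to 43.6% in the 3 WT libraries and 42.3% in Rag1-/- library 7. In Rag1-/- library 2 that block falls to 15.0%, and the SPRR1 and transglutaminase blocks reach 34.6% and 26.0%.

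Library 2 was further below WT in spinous and cornified envelope genes than in basal genes, which library 7 was not. Basal genes stood at a median of 30.8% of the WT mean in library 2 and 41.3% in library 7 (12 genes tested). Spinous genes, among them Krt1 and Krt10, stood at 6.77% and 51.3% (10 genes tested). The cornified envelope rows stood at 9.73% and 64.1%, where the first value sets the 28 rows at or under 3 counts in library 2 to 3 counts and is thus an upper bound. In library 7 the medians did not fall from basal to late genes. In sums, library 2 held 31.4% of the WT mean for basal genes, 6.97% for spinous genes and 3.42% for the cornified envelope rows. Library 7 held 1.55 times the CPM of library 2 for basal genes, 7.38 times for spinous genes and 16.4 times for the cornified envelope rows. Per 100 basal counts the libraries held 18.2, 9.79 and 9.88 cornified envelope counts in WT and 1.40 and 14.9 in Rag1-/- libraries 2 and 7, so that relative to basal genes library 7 lay inside the WT range and library 2 outside it.

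**Figure D5:**
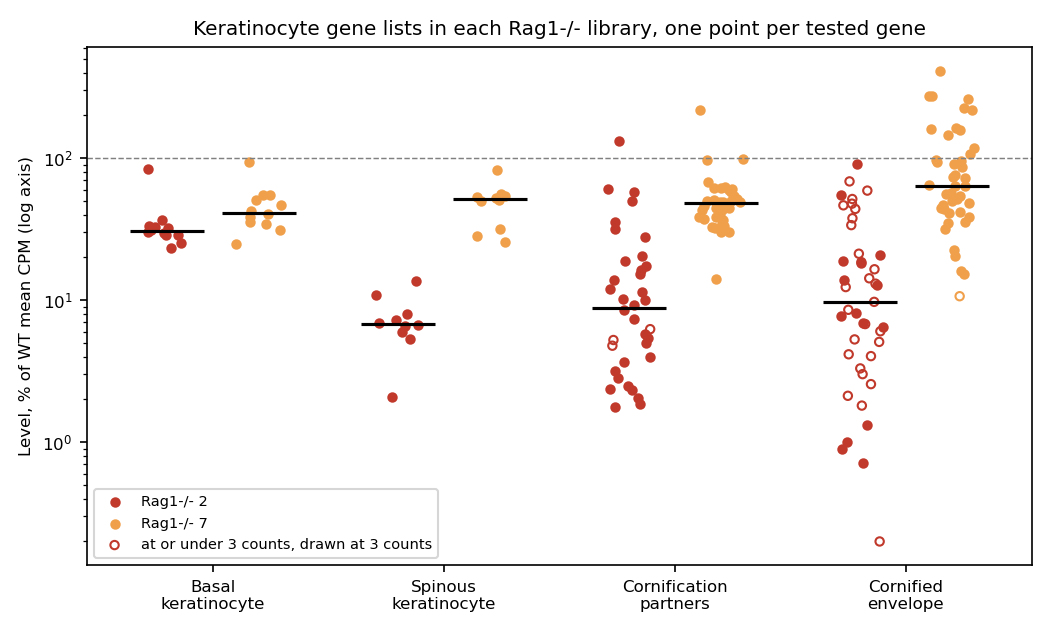
Level of each tested gene in Rag1-/- library 2 (red) and library 7 (orange) as a percent of its WT mean CPM (log axis), for basal, spinous, partner and cornified envelope genes, with bars at the medians. Open points had 3 counts or fewer and are drawn at 3 counts, and the red points drop from around 30.8% in basal genes to 6.77% in spinous genes while the orange points stay between 41.3% and 64.1% in the median.

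Cornification also needs plakins, proteases, lipid enzymes and transcription factors of the granular layer, of which a list of 40 genes was followed as partners. Of 36 tested 4 were called lower in Rag1-/- (background 2.16%) and none higher (edgeR), with a median log2 fold change of -1.66. Those called were the plakins Ppl (-1.99, adjusted p = 0.0368) and Evpl (-1.78, adjusted p = 0.0444), which anchor the envelope to keratin, and the transcription factors Ehf (-1.44, adjusted p = 0.0401) and Prdm1 (-1.23, adjusted p = 0.0481). Ppl had 630, 497 and 380 CPM in WT and 82.2 and 163 CPM in Rag1-/- libraries 2 and 7. Ehf had 186, 141 and 120 CPM in WT and 41.6 and 64.5 CPM in Rag1-/-. In both genes the 2 Rag1-/- libraries were closer to each other than those of Lor or Flg2. Leaving out any WT library or library 2 left 0 partners called, as it left 0 of all genes. Klk8, a skin protease, was the only partner with a positive fold change (0.86 ± 0.31, adjusted p = 0.138, edgeR), with 36.9, 24.7 and 23.0 CPM in WT and 37.1 and 61.6 CPM in Rag1-/-.

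The complex holds other genes between Lor and Tchh (chr3:92080271-93449077, GRCm38, from the first base of Lor to the last of Tchh). Of 39 such genes 11 were tested and none was called, with a median log2 fold change of -1.38. Crct1, a cysteine-rich gene of the same interval named here after its values were seen, had 110, 67.1 and 51.4 CPM in WT and 0.994 and 40.2 CPM in Rag1-/- libraries 2 and 7. It thus had the same order of libraries as Ivl and Sprr1a, the highest in WT library 5 and the lowest in Rag1-/- library 2. Over the 50 cornified envelope rows with any counts, WT library 5 was the highest in 25, WT library 6 in 9, WT library 13 in 8, Rag1-/- library 7 in 8 and Rag1-/- library 2 in 0.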

How the data were processed

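RNA of sorted dILC2s was sequenced in 5 pooled libraries (50 bases, poly(A)). The authors aligned reads with STAR 2.5, allowing 2 mismatches. The genome was GRCm38 by the methods, while the processing notes also name a later build, and the deposited gene positions match GRCm38. Reads were counted per gene with featureCounts 1.5.0-p1 on Ensembl genes (release 103 by the labels, 84 by the methods). The counts were deposited without normalization. A size-factor-scaled signal from the authors served 1 alternative only. The deposited fold changes were not used. Counts were filtered (filterByExpr), scaled (TMM) and tested with edgeR 4.0.16 in R 4.3.3 on all genes, with genotype alone in the model. DESeq2 1.42.0 and limma 3.58.1 (log2 of the deposited signal, pseudocount 1) were alternatives. The tests were also run on simulated counts with the same spread for all genes and no library set apart from its replicate. That check therefore does not cover a library like library 2. CPM divides by the library total, from 8050562 to 39477243 counts. Floors (3 counts) and intervals (95%) cover counting error only. With 3 libraries against 2, an exact permutation test has 10 splits and cannot give a p below 0.1. Pools were taken as replicates.

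Named were Flg, Ivl, the 3 members of each class with most counts, the called members, the 3 highest and 3 lowest fold changes, and the leading partners. Other members were named by their class or after their values were seen. The members and lists were chosen with earlier results of these data known. Standard errors come from the fold change and the F statistic. Promoters are from RefSeq (GRCm38.p6), and transcripts from GENCODE M21 (51 of 57 rows matched).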

Additional observations from a re-analysis of the deposited data

How the results depend on the processing

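The count of cornified envelope rows called lower, 0 in edgeR, was 6 with DESeq2, 37 with scaling on the leukocyte list (background 68.1%), 16 without a filter on low counts (background 4.98%) and 1 with at least 10 counts in every library, and ran from 0 to 23 as each library was left out, with 23 without Rag1-/- library 7. None was called higher under any alternative. The partners called lower, 4 in edgeR, were 17 with DESeq2 (background 7.16%), 35 with leukocyte scaling, 1 with basal keratinocyte scaling (background 0.153%), 29 without the filter, 9 with at least 10 counts (background 4.54%), 7 when all libraries were thinned to the shallowest (background 3.34%), 7 with limma (background 2.89%), and 0 to 32 with a library left out (background 0 to 7.98%). Basal scaling called 1 partner higher, where 53.9% of all genes were called higher. The neighbours called lower were 9 with leukocyte scaling, 2 without the filter and 0 to 4 with a library left out. Leukocyte scaling moved the median of all genes to -2.15 and basal scaling to 1.35. The median of the cornified envelope rows was -3.50 with leukocyte scaling, which is -1.35 relative to all genes, -0.14 with basal scaling, which is -1.49 relative to all genes, and -6.96 to -0.56 with a library left out, where the fitted folds of genes at 0 counts depend on the prior count. Summed over families, leukocyte scaling gave -3.33 for LCE1, -3.64 for LCE3 and -3.86 for SPRR2, all past the threshold, and basal scaling -0.08, -0.24 and -0.30, none past it. SPRR2 also passed without the filter (-1.47). With a library left out, LCE1 ran from -6.72 to -0.11, LCE3 from -8.34 to -0.61 and SPRR2 from -3.20 to -0.75, each past the threshold without Rag1-/- library 7. The log2 ratio of the share of counts on the rows, -1.75, ran from -4.87 to -0.83. Positive fold changes were found in 6 of 43 tested rows in edgeR, in 20 of 43 with basal scaling and in 16 of 46 without Rag1-/- library 2. Gene by gene, only the members picked by the naming rule above were followed. Among them, negative fold changes turned positive, without a call, in Lce1a1 (0.23 with basal scaling, 0.16 without Rag1-/- library 2). So did those of Lce1a2 (0.83 with basal scaling, 0.37 without WT library 6, 0.77 without Rag1-/- library 2). Those of Lce6a (0.028 with basal scaling), Sprr2g (0.39 with basal scaling, 0.018 without Rag1-/- library 2) and Sprr4 (0.25 without WT library 13) turned too. Without Rag1-/- library 7 the same genes stayed negative (Lce1a1 -7.39, Lce1a2 -5.10, Lce6a -5.48, Sprr2g -2.92 and Sprr4 -9.48). All 14 LCE1 genes were negative with leukocyte scaling and without Rag1-/- library 7, and 13 were with limma, against 8 in the main edgeR fit. Among the members picked by the naming rule, positive fold changes turned negative, without a call, in Lce1g, Lce1h and Lce1k. The values were -1.41 with leukocyte scaling, -2.36 with limma and -9.85 without Rag1-/- library 7 for Lce1g, and -1.34, -1.99 and -9.09 for Lce1h. For Lce1k they were -0.60 with leukocyte scaling and -3.02 without Rag1-/- library 7. The fold changes of these genes were otherwise positive. They stayed positive without any other library, up to 1.51 for Lce1g, 1.50 for Lce1h and 2.61 for Lce1k. The cause of these changes was not tested. No paired analysis was possible because the WT and Rag1-/- libraries share no replicate number. Depth limits library 2, where 28 of the 43 tested rows were at or under 3 counts.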
